A study of Mus musculus with 9 samples.

Results

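The Krüppel-like factors described here are 10 genes of 1 family of transcription factors, Klf2, Klf3, Klf4, Klf5, Klf6, Klf7, Klf9, Klf10, Klf13 and Klf15. They were found by gene symbol in a raw count table of 55359 genes, each symbol matched 1 row, and all 10 had enough reads to be tested. RNA had been sequenced in 9 libraries of mouse adipocyte precursors of inguinal white fat (iWAT), a subcutaneous depot. The cells were differentiated towards beige adipocytes, fat cells that can turn on heat production. The 3 day 0 libraries came from precursors given no treatment, and 3 libraries each came from cells 4 and 8 days into differentiation. The day 4 and day 8 cells had spent their first 2 days in an induction medium. It held 2 µg/mL of the glucocorticoid dexamethasone, the phosphodiesterase inhibitor 3-isobutyl-1-methylxanthine at 0.5 mmol/L, which raises cAMP, and indomethacin at 125 µmol/L. It also held insulin at 5 µg/mL, the thyroid hormone 3,3′,5-triiodo-L-thyronine at 1 µmol/L and the PPARγ agonist rosiglitazone at 0.5 µmol/L. Dexamethasone, 3-isobutyl-1-methylxanthine and indomethacin were then left out, so at day 4 the cells were 2 days away from them. No genetic change is named for any group, and the labels give no strain, sex or age. The labels do not say that the 3 libraries of a day came from separate animals or cultures, and p-values therefore reflect the spread among these libraries alone, which may be technical.

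Krüppel-like factors share C2H2 zinc fingers at the end of the protein, which bind CACCC boxes and other GC-rich elements, and differ in the rest of the protein, which recruits coactivators or corepressors. In fat cell differentiation several act in sequence. As background, Klf4 and Klf5 are known as early activators and Klf6 as a repressor of the precursor gene Dlk1. Klf9 and Klf15 are hormone-responsive factors of the later stages, and Klf2, Klf3 and Klf7 hold precursors back. Values below are counts scaled to the library's TMM-adjusted size (CPM). Values after ± are SDs over the 3 libraries of a day, and libraries are given in the order of their replicate numbers. Log2 fold changes (LFC), SEs and Benjamini-Hochberg adjusted p-values come from edgeR's two-sided quasi-likelihood test over 14649 genes. "Rose" and "fell" are used where the adjusted p was under 0.05.

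The promoters are shown because members of this family bind GC-rich elements of the kind that many of their own promoters hold. Of the genes shown, Klf13 and Klf15 rose and later fell, Klf3 and Klf6 fell early, and Klf9 rose early. The sequences are those of RefSeq on build GRCm38.p6, which held 8 of the 10 members (not Klf5 or Klf10), read 5′ to 3′ on the gene's strand and ending just before the annotated start site. Capitals mark the GC box GGGCGG, the CACCC box CCACCC and the letters CCAAT, each on either strand. The Klf15 stretch is chr6:90462326-90462575 (plus strand), Klf13 chr7:63938916-63939165 (minus strand), Klf9 chr19:23140976-23141225 (plus), Klf3 chr5:64803271-64803520 (plus) and Klf6 chr13:5861239-5861488 (plus).
Klf15: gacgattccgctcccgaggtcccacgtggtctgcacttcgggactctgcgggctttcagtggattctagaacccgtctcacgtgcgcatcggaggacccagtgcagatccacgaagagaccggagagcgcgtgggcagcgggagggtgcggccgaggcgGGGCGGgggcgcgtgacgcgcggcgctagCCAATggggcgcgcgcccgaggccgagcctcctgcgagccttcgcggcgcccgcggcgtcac
Klf13: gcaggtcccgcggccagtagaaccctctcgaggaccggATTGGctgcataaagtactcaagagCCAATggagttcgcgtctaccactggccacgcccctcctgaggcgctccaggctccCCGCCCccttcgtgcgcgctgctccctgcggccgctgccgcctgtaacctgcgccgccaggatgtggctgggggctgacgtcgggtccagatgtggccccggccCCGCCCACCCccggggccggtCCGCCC
Klf9: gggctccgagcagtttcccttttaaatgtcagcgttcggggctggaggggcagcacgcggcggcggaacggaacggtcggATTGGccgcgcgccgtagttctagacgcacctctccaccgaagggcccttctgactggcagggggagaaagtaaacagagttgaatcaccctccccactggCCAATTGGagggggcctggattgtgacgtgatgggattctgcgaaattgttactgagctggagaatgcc
Klf3: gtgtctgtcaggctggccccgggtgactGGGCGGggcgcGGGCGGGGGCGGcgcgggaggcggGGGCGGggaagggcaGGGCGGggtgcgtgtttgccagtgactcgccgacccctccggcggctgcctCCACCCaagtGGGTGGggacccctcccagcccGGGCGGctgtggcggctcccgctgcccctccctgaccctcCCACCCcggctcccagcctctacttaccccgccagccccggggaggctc
Klf6: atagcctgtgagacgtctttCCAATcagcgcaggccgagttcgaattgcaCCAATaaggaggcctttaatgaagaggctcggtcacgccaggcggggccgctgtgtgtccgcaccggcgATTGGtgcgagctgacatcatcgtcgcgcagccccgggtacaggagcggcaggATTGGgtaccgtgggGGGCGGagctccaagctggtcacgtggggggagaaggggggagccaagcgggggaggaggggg
Klf3 held 6 GC boxes and 3 CACCC boxes, together the most matches of the 8 promoters, whereas Klf9 held neither and had 3 matches to CCAAT, 2 of which overlap. Klf13 held 3 GC boxes, 1 CACCC box and 2 CCAAT matches, with 1 pair overlapping, Klf6 held 1 GC box and 4 CCAAT matches, and Klf15 held 1 GC box and 1 CCAAT match. Windows from 250 bases before to 50 bases after the start site were compared. The GC box was found in 7 of the 8 members, against 35.7% of 32851 promoters, the CACCC box in 4 against 31.5%, and CCAAT in 4 against 37.4%. GC content of the 8 windows ran from 58.3% to 76.7% with a median of 70.7%, against a median of 52.7% over all promoters. None of the 8 held the full palindromic steroid receptor element (0.00913% of all promoters) or the direct repeat of the PPAR type (0.0396%), both searched as exact letters. Nor did any hold the cAMP element TGACGTCA (1.79%) or TATAAA (13.6%). These matches describe letters, not bound sites.

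The libraries held 26387408 to 31474490 counts, so that 3 counts in a library amount to 0.0808 to 0.125 CPM, well under the lowest member. The adipocyte markers Adipoq, Fabp4, Plin1, Lpl and Cidec summed to 294 to 383 CPM at day 0, mostly Lpl, and to 21074 to 38337 CPM at day 4. The beige markers Ucp1, Cidea, Cox8b and Ppargc1a summed to 0.0971 to 0.242 CPM at day 0, 20.8 to 73.0 at day 4 and 474 to 1255 at day 8. Among markers of other cells, the macrophage sum was 35.7 to 80.5, 40 to 62.5 and 8.50 to 43.2 CPM at days 0, 4 and 8. It was mostly Lyz2 at days 0 and 4 (49.2 ± 21.1 and 42.7 ± 8.24 CPM). Lyz2, Adgre1 and Csf1r passed in no comparison, and Cd68 rose from 2.33 ± 0.429 CPM at day 4 to 7.04 ± 3.76 at day 8 (adjusted p = 0.0278). The mural sum, mostly Pdgfrb, was 836 to 919, 149 to 341 and 166 to 179 CPM. The lymphocyte sum did not exceed 4.74 CPM and the mammary epithelial sum did not exceed 0.621 CPM. The precursor sum (Pdgfra, Cd34, Ly6a, Dpp4 and Dlk1), mostly Ly6a, was 519 to 597, 582 to 1350 and 311 to 434 CPM. Its genes did not move together. Of the 4 tested, 3 rose at day 4 and 1, Pdgfra, fell, beside 28.6% and 26% of all genes. Pdgfra measured 183 ± 8.28, 101 ± 49.4 and 46.4 ± 7.89 CPM (adjusted p = 0.026 at day 4 and 0.000199 at day 8 against day 0). Day 4 replicate 2 stood apart. There 17.4% of tested genes were over 2-fold from the mean of the day's other libraries, against 2.63% to 11.2% in the remaining 8 libraries. Its Pdgfra (155 CPM against 59.4 and 87.4) and Ly6a (1132 against 495 and 464) were the highest of the day, and its adipocyte sum was the lowest, 21074 CPM. It was also the highest library of its day for 8 of the 10 factors, all but Klf10 and Klf15, for which it was the lowest. Day 8 replicate 1 was the highest of its day for 6 factors, Klf3, Klf4, Klf5, Klf6, Klf7 and Klf9. Day 0 replicate 1 was the highest of its day for 5, the same ones without Klf5. In bulk RNA, fewer cells of a type and less RNA per cell cannot be told apart.

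From day 0 to day 4, 3 of the 10 factors rose (Klf9, Klf13 and Klf15) and 4 fell (Klf2, Klf3, Klf6 and Klf7). These 7 of 10 stand beside 54.6% of all genes called in that comparison, 28.6% higher and 26% lower. The same 7 had groups that did not overlap, 3 higher and 4 lower, beside 65.8% of all genes, 32.8% higher and 33% lower. From day 0 to day 8, 2 rose (Klf9 and Klf13) and 5 fell (Klf2, Klf3, Klf4, Klf6 and Klf7), 7 of 10 beside 63.4% of all genes, 33.5% higher and 29.9% lower. Groups did not overlap for 8 members, 2 higher and 6 lower (the same ones and Klf5), beside 72.7% of all genes, 37.4% higher and 35.3% lower. From day 4 to day 8, 1 rose (Klf7) and 5 fell (Klf4, Klf5, Klf10, Klf13 and Klf15), 6 of 10 beside 22.4% of all genes, 11.7% higher and 10.8% lower. The groups of these 6 did not overlap, 1 higher and 5 lower, beside 37.1% of all genes, 19.9% higher and 17.1% lower. The median log2 fold change of the 10 was -0.03, -0.63 and -0.69 in the 3 comparisons, beside -0.01, 0.03 and 0.00 over all genes tested. The comparisons share libraries and are not independent. With scaling to total counts in place of TMM, the median of all genes moved to -0.34, -0.33 and -0.03, so every change given here is relative to the bulk of genes.

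**Figure D1:**
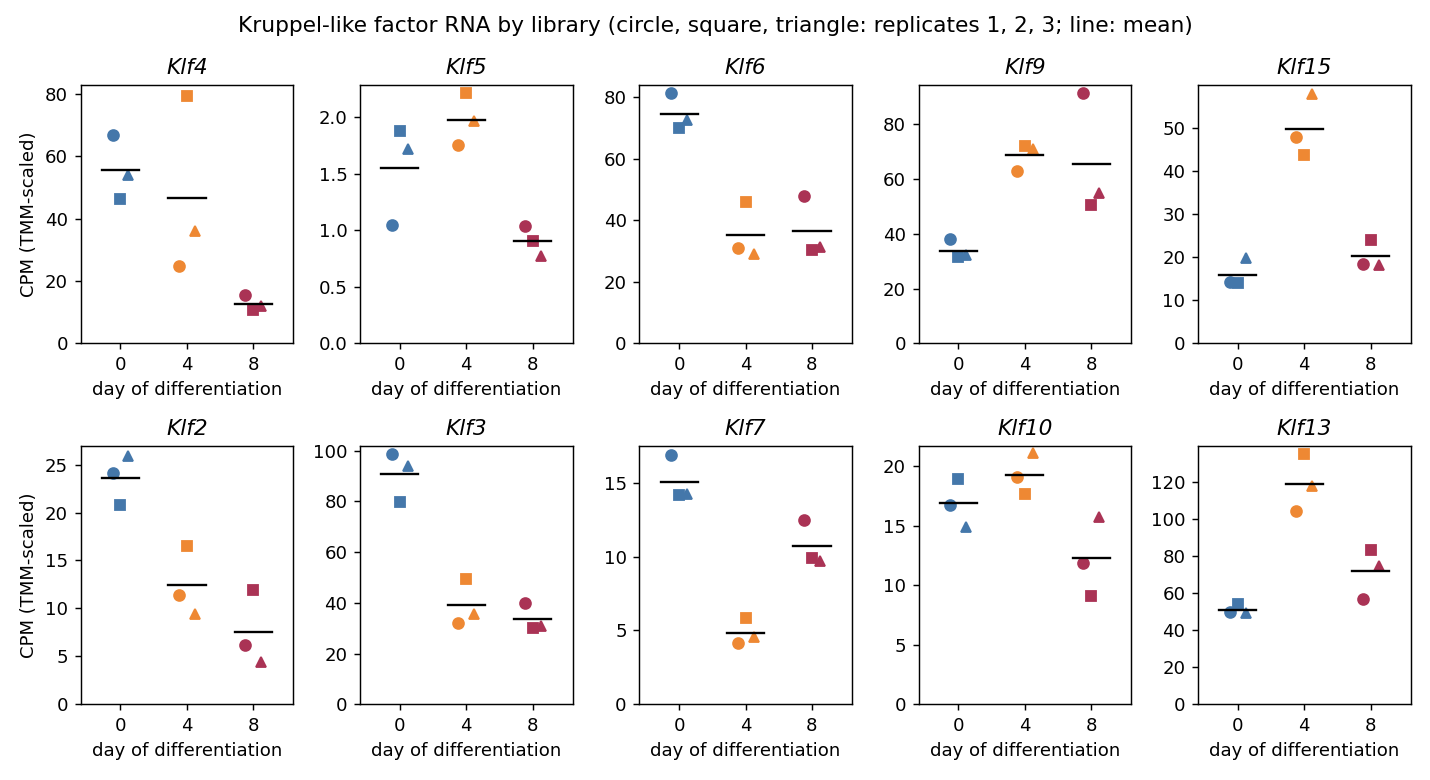
CPM of each of the 10 genes by day on linear axes from 0, with 1 point per library (circle, square and triangle for replicates 1, 2 and 3) and a line at the mean of each day. Klf9, Klf13 and Klf15 lie higher at day 4 than at day 0 in every library, Klf2, Klf3, Klf6 and Klf7 lie lower, and Klf4 spreads from 24.7 to 79.4 CPM within day 4.

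**Figure D2:**
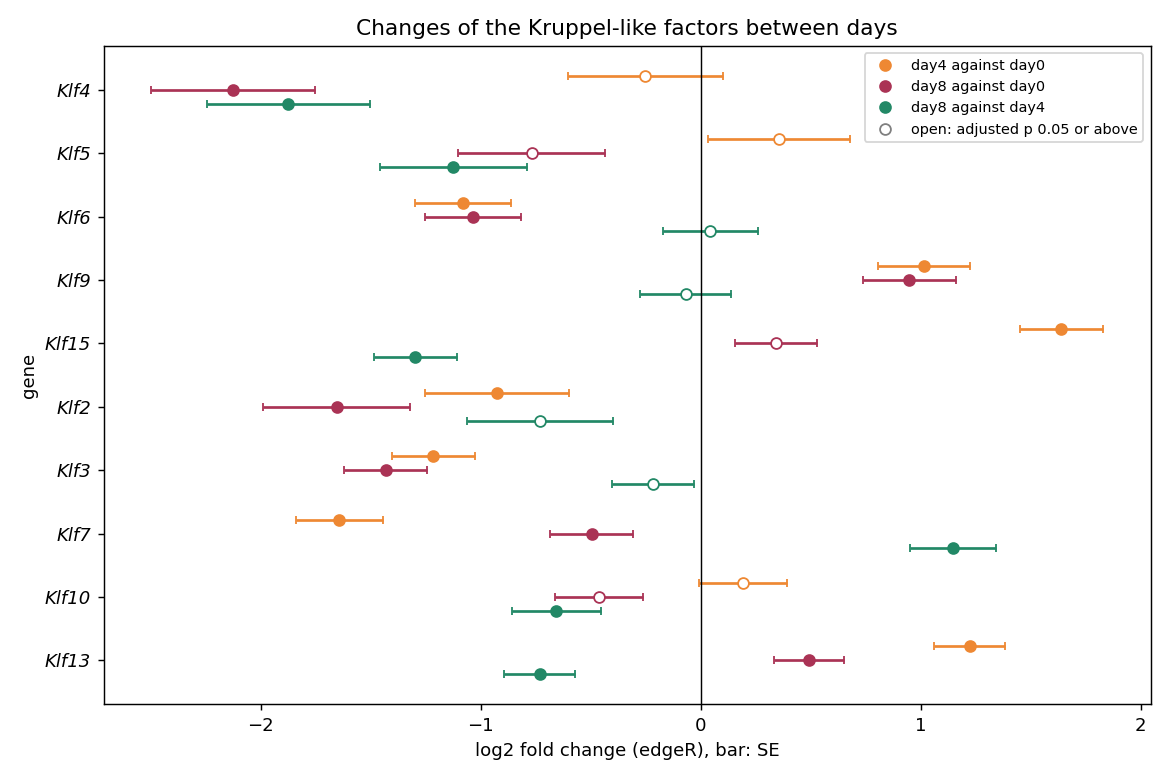
Log2 fold change of each of the 10 genes in the 3 comparisons, with bars for the SE of the edgeR fit and open points where the adjusted p was 0.05 or above. Klf15 and Klf13 are above 0 at day 4 and below 0 from day 4 to day 8, and Klf7 shows the opposite order.

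Klf4, which with Egr2 is known to switch on Cebpb in the first hours of adipogenesis, was among the precursors' highest factors and fell late. It measured 66.7, 46.3 and 54.0 CPM at day 0, 24.7, 79.4 and 36.2 at day 4 and 15.5, 10.6 and 12.2 at day 8. All 3 day 8 libraries lay below every earlier one, while the day 4 libraries surrounded the day 0 range, with replicate 2 the highest of all 9. From 55.7 ± 10.3 CPM at day 0 it fell 4.36-fold to 12.8 ± 2.53 at day 8 (LFC -2.12, SE 0.37, adjusted p = 0.000554). It fell 3.66-fold from day 4 to day 8 (LFC -1.87, SE 0.37, adjusted p = 0.00659). Day 4 did not pass the test against day 0 (LFC -0.25, SE 0.35, adjusted p = 0.57), with an unadjusted 95% interval of -1.03 to 0.53. That call rests on the library that stands apart: without day 4 replicate 2 the log2 fold change was -0.87 with an adjusted p of 0.00525, and without day 4 replicate 1 it was 0.06 with an adjusted p of 0.889. Pdgfra and Ly6a, highest in the same replicate 2, moved with Klf4 there, and their part in its value was not tested.

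Klf5, known to act between C/EBPβ and C/EBPδ and the Pparg promoter, was the least abundant of the 10 per length. Its level was 1.05, 1.88 and 1.72 CPM at day 0, 1.75, 2.21 and 1.97 at day 4 and 1.04, 0.903 and 0.771 at day 8, so the day 8 libraries lay just below the lowest earlier one and those of days 0 and 4 overlapped. Day 4 against day 0 did not pass (LFC 0.36, SE 0.32, adjusted p = 0.371, unadjusted interval -0.35 to 1.07). Day 8 against day 0 did not pass either (LFC -0.77, SE 0.33, adjusted p = 0.0642), but did so without day 0 replicate 1, the low library of that day (-1.01, adjusted p = 0.0332), with DESeq2 (-0.79, adjusted p = 0.048) and with total count scaling (-1.13, adjusted p = 0.0131). From day 4 to day 8 it fell 2.18-fold (LFC -1.12, SE 0.33, adjusted p = 0.0354). This call was lost without day 0 replicate 2 or 3, day 4 replicate 2 or 3 or any 1 of the day 8 libraries (adjusted p between 0.0521 and 0.0965), when low counts were not filtered (adjusted p = 0.0599) and in a fit of days 4 and 8 alone (adjusted p = 0.0641).

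Klf6, a repressor of the precursor gene Dlk1, was lower at both later days than at day 0. Its values were 81.4, 69.9 and 72.7 CPM at day 0, 30.9, 45.9 and 29.2 at day 4 and 47.9, 30.3 and 31.2 at day 8. No library of day 4 or day 8 reached the lowest of day 0, and the later days overlapped. It fell 2.11-fold by day 4 (LFC -1.08, SE 0.22, adjusted p = 0.00187) and 2.05-fold by day 8 (LFC -1.03, SE 0.22, adjusted p = 0.0018). Between day 4 and day 8 the log2 difference was 0.04 (adjusted p = 0.901, unadjusted interval -0.44 to 0.52). Dlk1 itself measured 6.86 ± 2.26, 14.9 ± 5.97 and 6.52 ± 2.54 CPM at days 0, 4 and 8 and rose at day 4 (LFC 1.12, SE 0.37, adjusted p = 0.0263). It did not pass when day 0 replicate 1, day 0 replicate 2 or day 4 replicate 2 was left out (0.0722 to 0.0931 for the adjusted p), nor with total count scaling (adjusted p = 0.0968). The part of Klf6 in the values of Dlk1 was not tested.

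Klf9, a factor that both glucocorticoid and thyroid hormone are known to induce and that acts on Cebpa and Pparg, was higher at both later days than at day 0. Its level was 38.2, 31.5 and 32.2 CPM at day 0, 63.0, 71.9 and 71.2 at day 4 and 91.4, 50.5 and 54.8 at day 8, and every later library exceeded all 3 of day 0. It rose 2.02-fold by day 4 (LFC 1.02, SE 0.21, adjusted p = 0.00211) and 1.93-fold by day 8 (LFC 0.95, SE 0.21, adjusted p = 0.00242). Day 8 spread widely, from 50.5 CPM in replicate 2 to 91.4 in replicate 1, and overlapped day 4 (LFC -0.07, SE 0.21, adjusted p = 0.837, unadjusted interval -0.53 to 0.39).

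Klf15, a glucocorticoid-inducible factor known to activate Slc2a4, the gene of the glucose transporter GLUT4, rose and then fell most of the way back. It measured 14.1, 14.0 and 19.8 CPM at day 0, 47.8, 43.8 and 57.8 at day 4 and 18.5, 24.1 and 18.2 at day 8. The 3 day 4 libraries lay above all others, while day 0 and day 8 overlapped. The rise to day 4 was 3.12-fold (LFC 1.64, SE 0.19, adjusted p = 4.65e-05), the largest rise among the 10, and the fall from day 4 to day 8 was 2.46-fold (LFC -1.30, SE 0.19, adjusted p = 0.00177). Day 8 against day 0 did not pass (LFC 0.34, SE 0.19, adjusted p = 0.13, unadjusted interval -0.07 to 0.76). It passed without day 0 replicate 3, the highest of that day (0.50, adjusted p = 0.048), and was -0.03 with total count scaling.

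Klf2, a repressor of the Pparg promoter that is also a hallmark of endothelial cells under flow, fell. It measured 24.2, 20.8 and 25.9 CPM at day 0, 11.4, 16.5 and 9.41 at day 4 and 6.17, 11.9 and 4.45 at day 8. Every later library lay below day 0, and day 4 and day 8 overlapped through day 8 replicate 2, the highest of its day. It fell 3.15-fold from day 0 to day 8 (LFC -1.65, SE 0.33, adjusted p = 0.00138) and 1.90-fold to day 4 (LFC -0.92, SE 0.33, adjusted p = 0.0331). The day 4 call was lost without day 0 replicate 1 or 3 or day 4 replicate 1 or 3 (adjusted p between 0.0693 and 0.121). The difference between day 4 and day 8 (-0.73, adjusted p = 0.134) passed without day 8 replicate 2 (-1.23, adjusted p = 0.0219). The sum of the endothelial markers Pecam1, Cdh5, Kdr, Tek and Emcn was 11.4 to 15.5 CPM at day 0, 2.5 to 10.5 at day 4 and 1.81 to 2.73 at day 8. Most of that sum was Tek (10.6 ± 2.59 CPM at day 0). The day 0 levels of the others were 0.339 ± 0.251 (Pecam1), 0.524 ± 0.249 (Cdh5), 0.802 ± 0.103 (Kdr) and 0.512 ± 0.184 CPM (Emcn). Of the 5, 2 fell at day 4 and 4 at day 8 against day 0, beside 26% and 29.9% of all genes. Pecam1 measured 0.151 ± 0.121 CPM at day 4 and 0.476 ± 0.269 at day 8, above its day 0 mean, and passed in no comparison. The part of endothelial cells in the values of Klf2 was not tested.

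Klf3, a repressor that recruits CtBP corepressors and is known to act on Cebpa, fell early, and its calls were the same under each of the 15 alternatives tried. It measured 98.5, 79.6 and 93.8 CPM at day 0, 32.1, 49.5 and 35.5 at day 4 and 40.1, 30.0 and 30.7 at day 8. The groups of day 4 and day 8 lay below day 0 and overlapped each other. It fell 2.32-fold by day 4 (LFC -1.21, SE 0.19, adjusted p = 0.000337) and 2.70-fold by day 8 (LFC -1.43, SE 0.19, adjusted p = 8.69e-05). Day 8 against day 4 did not pass (-0.22, adjusted p = 0.42, unadjusted interval -0.63 to 0.19).

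Klf7, which holds back adipogenesis when overexpressed, dipped at day 4 and partly returned. Its level was 16.9, 14.2 and 14.2 CPM at day 0, 4.13, 5.84 and 4.53 at day 4 and 12.5, 9.90 and 9.70 at day 8, with no overlap between any 2 days. It fell 3.12-fold by day 4 (LFC -1.64, SE 0.20, adjusted p = 6e-05) and rose 2.21-fold from day 4 to day 8 (LFC 1.15, SE 0.20, adjusted p = 0.00358). It was the only 1 of the 10 to pass in both steps in that order, as did 3.11% of all genes. The difference between day 8 and day 0 (LFC -0.50, SE 0.19, adjusted p = 0.04) was lost without any 1 of the 3 day 0 libraries, day 4 replicate 3 or day 8 replicate 2 or 3 (adjusted p between 0.0542 and 0.129), and when low counts were not filtered (adjusted p = 0.0785). In the GENCODE M21 annotation 3196 exon bases of Klf7 are shared with Gm26649, a long noncoding RNA on the opposite strand, and 4 with Gm13748. Klf3 shares 404 with Gm20033, which had 0 to 12 counts per library, and the other 8 members share none. Gm26649 was not among the counted genes under its M21 identifier, so its own course cannot be set beside that of Klf7. Whether the counting used strand is not stated, so reads of Klf7 and Gm26649 may not be separable.

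Klf10, a TGF-β-inducible factor also called TIEG1, passed the test in the last step alone. It measured 16.8, 19.0 and 14.9 CPM at day 0, 19.1, 17.7 and 21.1 at day 4 and 11.9, 9.11 and 15.8 at day 8, and only day 8 against day 4 had groups that did not overlap. Day 4 did not pass against day 0 (LFC 0.19, SE 0.20, adjusted p = 0.436, unadjusted interval -0.25 to 0.64). Neither did day 8 (LFC -0.46, SE 0.20, adjusted p = 0.0664), but it passed without day 4 replicate 2 (-0.51, adjusted p = 0.0384), without day 8 replicate 3 (-0.68, adjusted p = 0.014) and with total count scaling (-0.81, adjusted p = 0.00798). From day 4 to day 8 it fell 1.57-fold (LFC -0.66, SE 0.20, adjusted p = 0.041). That call was lost without any 1 of the day 0 libraries, day 4 replicate 1 or 3 or day 8 replicate 1 or 2 (adjusted p between 0.0549 and 0.122), with total count scaling (adjusted p = 0.0524) and in a fit of days 4 and 8 alone (adjusted p = 0.0816).

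Klf13, a member of the same BTEB-type branch as Klf9 and best known from T cells and heart, rose and fell back in part. It measured 49.8, 54.0 and 49.3 CPM at day 0, 104, 135 and 118 at day 4 and 57.0, 83.6 and 74.8 at day 8. No 2 days overlapped, with day 4 the highest and day 8 between. It rose 2.34-fold by day 4 (LFC 1.22, SE 0.16, adjusted p = 0.000112) and fell 1.66-fold from day 4 to day 8 (LFC -0.73, SE 0.16, adjusted p = 0.0103). At day 8 it was 1.41-fold above day 0 (LFC 0.49, SE 0.16, adjusted p = 0.0194). That call was lost with total count scaling (0.12, adjusted p = 0.534) and without day 0 replicate 1 or 3 or day 8 replicate 2 or 3 (adjusted p between 0.0553 and 0.0729). Klf13 and Klf15 were the 2 members that rose and then fell, as did 4.27% of all genes. The lymphocyte sum, given because Klf13 is known from T cells, was 2.57 to 4.74 CPM at day 0 and 0.218 to 0.459 at day 4, where Klf13 was highest. The part of lymphocytes in the values of Klf13 was not tested.

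Per length the order of the 10 changed between the days. CPM were divided by the length of all exons of the gene joined, in kilobases, since counts of long and short genes cannot be compared directly. At day 0 the highest levels were Klf4 at 18.3 ± 3.39 CPM per kb and Klf6 at 17.0 ± 1.36, which overlapped, followed by Klf2 at 12.8 ± 1.41, apart from both neighbours. Klf3, Klf9, Klf13 and Klf15 ran from 8.06 ± 0.876 down to 5.73 ± 1.18, each overlapping the next, and Klf10 (4.04 ± 0.483), Klf7 (1.86 ± 0.191) and Klf5 (0.298 ± 0.0842) followed without overlap. At day 4 the top 4 were Klf15 at 17.8 ± 2.58 CPM per kb, Klf13 at 15.8 ± 2.06, Klf4 at 15.3 ± 9.46 and Klf9 at 14.3 ± 1.03, each overlapping the next. A gap separated them from Klf6 (8.05 ± 2.10) and Klf2 (6.73 ± 1.97), which overlapped, and from Klf10 (4.62 ± 0.417) and Klf3 (3.47 ± 0.822), which overlapped too, above Klf7 (0.594 ± 0.110) and Klf5 (0.380 ± 0.0443). At day 8 Klf9 led at 13.6 ± 4.67, with Klf13 (9.53 ± 1.80), Klf6 (8.30 ± 2.26) and Klf15 (7.26 ± 1.18) next, each overlapping its neighbour. Klf4 (4.18 ± 0.831), Klf2 (4.07 ± 2.12), Klf3 (2.99 ± 0.499) and Klf10 (2.93 ± 0.800) formed a second overlapping run, and Klf7 (1.32 ± 0.193) and Klf5 (0.174 ± 0.0259) were again lowest. The place of Klf3 depended on the length used. Its exons joined span 11243 bases and its longest transcript 5221, and with the longest transcript of each gene Klf3 stood at 17.4 ± 1.89 CPM per kb at day 0, overlapping Klf6 at 17.7 ± 1.41 and above Klf2, with Klf4 first at 18.4 ± 3.41. It then stood at 7.48 ± 1.77 at day 4, between Klf6 and Klf2, and at 6.43 ± 1.07 at day 8, above Klf4, with the same genes first at each day.

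As shares of the summed level of all Klf genes per length, Klf4 made up 18.6% ± 2.47 and Klf6 17.3% ± 0.661 at day 0, ahead of Klf16 at 13.4% ± 1.75 and Klf2 at 13.0% ± 1.0. With the longest transcript of each gene the day 0 order was Klf4 (16.3% ± 2.16), Klf6 (15.7% ± 0.603) and Klf3 (15.4% ± 0.836), ahead of Klf16 (11.7% ± 1.54) and Klf2 (11.4% ± 0.864), whereas Klf3 held 8.21% ± 0.455 by joined exons. The shares that follow are by joined exons. At day 4 Klf15 came first with 18.9% ± 4.68, followed by Klf13 with 16.4% ± 0.767, Klf4 with 15.0% ± 6.60 and Klf9 with 14.9% ± 1.74. By day 8 Klf9 made up 19.6% ± 5.47, the repressor Klf16 16.1% ± 2.59, Klf13 14.0% ± 3.25 and Klf6 12% ± 2.5. The summed level itself was 98.0 ± 5.44, 97.1 ± 17.2 and 68.8 ± 5.48 CPM per kb. By either length the largest mean share went from Klf4 to Klf15 to Klf9, in each case with the next gene's mean within 1 SD of it.

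**Figure D3:**
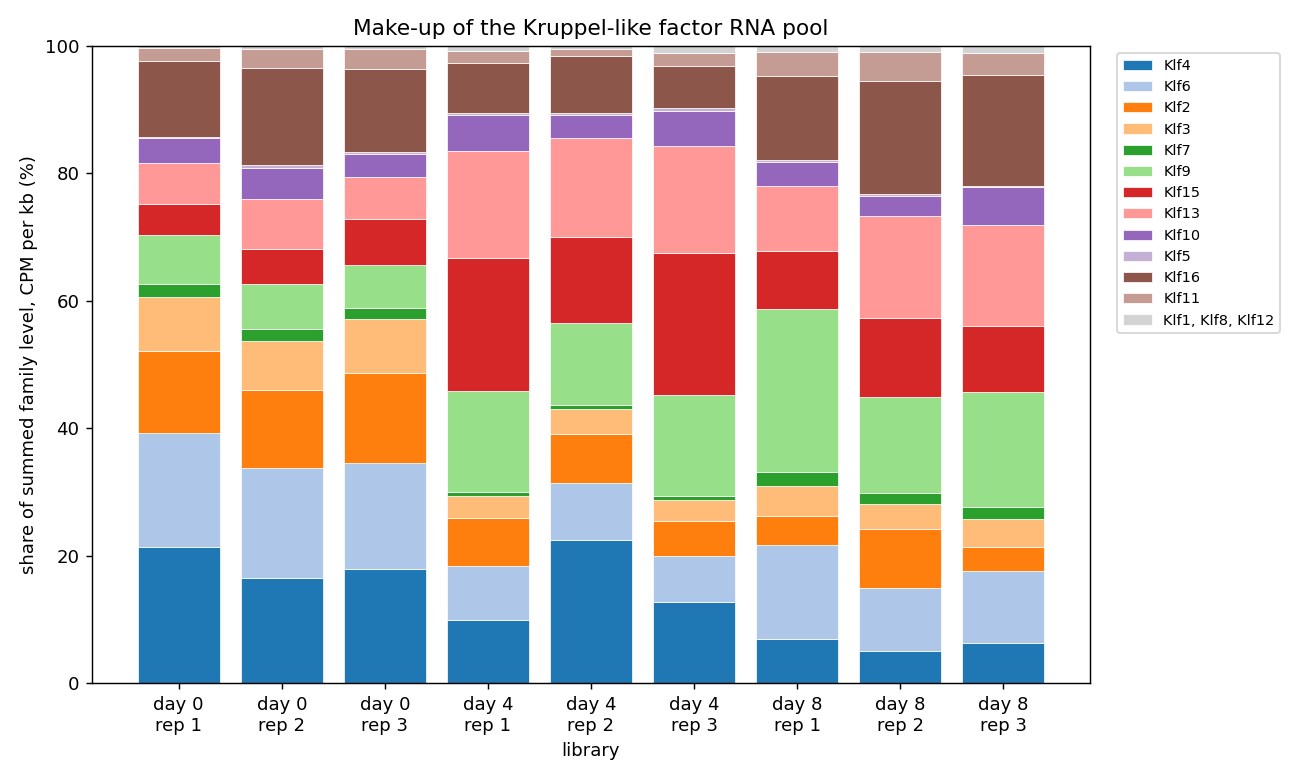
Share of each Klf gene in the summed CPM per kb of joined exons of the family, stacked for each of the 9 libraries. Klf4 and Klf6 are the widest bands at day 0, Klf4 is the widest at day 4 in replicate 2 only, and Klf9 has the largest mean share at day 8, 19.6%.

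The genes most like each member were found by the root mean square difference in log2 CPM, centred on each gene's mean, over the 9 libraries. Of all tested genes Tulp4 (0.05) and Stox2 (0.10) ran closest to Klf3, and Hnrnpa3 (0.10) and Csnk1g1 (0.10) to Klf6. Nearest to Klf13 were Dolpp1 (0.10) and Nhp2 (0.12), and nearest to Klf5 Ggact (0.14) and Gins1 (0.19). Donson (0.14) was close to Klf10. Klf9 was followed by Oxsm (0.16) and Insr (0.17), Klf7 by Rab6b (0.16) and Actg1 (0.17), and Klf15 by L3hypdh (0.19) and Abcc5 (0.20). Klf4 had Ror1 (0.22) and Eme1 (0.25), and Klf2 had Gm47175 (0.22) and Hs3st3b1 (0.28), so the courses of these last pairs were the least closely matched. Among the members themselves Klf3 and Klf6 were most alike (0.18), then Klf13 and Klf15 (0.34) and Klf5 and Klf10 (0.38), and Klf7 and Klf15 were farthest apart (1.43).

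The family's other genes were read from the same fit. Of 7 further Klf genes 4 could be tested, and Klf14 and Klf17 had no count in any library. Klf16, a repressor of the BTEB-type branch, measured 34.9 ± 2.56 CPM at day 0, 20.4 ± 6.22 at day 4 and 29.5 ± 3.58 at day 8 and fell at day 4 (LFC -0.77, SE 0.20, adjusted p = 0.00767). Day 8 against day 4 did not pass (LFC 0.53, SE 0.20, adjusted p = 0.0791), but did when day 4 replicate 2 was left out (0.76, adjusted p = 0.00375). Day 8 against day 0 passed with total count scaling (-0.61, adjusted p = 0.031). Klf11, the TGF-β-inducible relative of Klf10, measured 11.4 ± 2.07, 6.77 ± 1.47 and 11.6 ± 2.18 CPM, fell at day 4 (LFC -0.75, SE 0.23, adjusted p = 0.017) and rose from day 4 to day 8 (LFC 0.78, SE 0.23, adjusted p = 0.0345). Its first call was lost without day 0 replicate 2 or 3 (adjusted p up to 0.0706), and its second without day 0 replicate 2 or 3, day 4 replicate 1 or 2 or day 8 replicate 1 or 2 (up to 0.108) and in a fit of days 4 and 8 alone (adjusted p = 0.077). Klf12, a CtBP-binding repressor close to Klf3, was low at 1.00 ± 0.338, 0.359 ± 0.383 and 0.0601 ± 0.0542 CPM and fell at day 8 (LFC -3.97, SE 1.05, adjusted p = 0.00681). Without day 4 replicate 2 it passed at day 4 too (-2.61, adjusted p = 0.0294), and without day 4 replicate 1 between days 4 and 8 (-3.10, adjusted p = 0.0225). Klf1, the erythroid factor, was low at 0.395 ± 0.0515, 1.06 ± 0.432 and 1.04 ± 0.0178 CPM and rose at day 8 (LFC 1.38, SE 0.41, adjusted p = 0.0118) as at day 4 (LFC 1.42, SE 0.41, adjusted p = 0.013), the latter lost without day 0 replicate 3 or day 4 replicate 3 (adjusted p up to 0.069).

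The Sp factors bind the same GC boxes. Of 9 Sp genes 5 were tested. At day 4, 2 were lower, and at day 8 against day 0, 1 was lower, beside 26% and 29.9% of all genes. Between days 4 and 8 edgeR called 0, with 2 at an unadjusted p under 0.05, and DESeq2 called 0, while edgeR called 22.4% of all genes. Sp1, the ubiquitous member, measured 56.2 ± 3.68, 34.3 ± 0.324 and 39.8 ± 4.67 CPM and fell at day 4 (LFC -0.71, SE 0.13, adjusted p = 0.000782) and at day 8 (LFC -0.50, SE 0.12, adjusted p = 0.00505). Sp4 measured 1.73 ± 0.401, 0.478 ± 0.115 and 0.945 ± 0.333 CPM and fell at day 4 (LFC -1.85, SE 0.40, adjusted p = 0.00288). Sp2 (19.1 ± 1.70, 22.4 ± 3.20 and 17.2 ± 1.51 CPM), Sp3 (31.4 ± 8.58, 21.1 ± 4.40 and 26.4 ± 11.3 CPM) and the osteoblast factor Sp7 (0.655 ± 0.0684, 0.208 ± 0.114 and 0.316 ± 0.359 CPM) did not pass in any comparison. Under alternatives some did. With total count scaling Sp3 passed at day 4 (-0.91, adjusted p = 0.0301), Sp7 at day 4 (-1.96, adjusted p = 0.0463) and Sp2 at day 8 against day 0 (-0.51, adjusted p = 0.0186). Sp7 also passed at day 4 in a fit of days 0 and 4 alone (-1.63, adjusted p = 0.025), and without day 8 replicate 1 at day 4 (-1.64, adjusted p = 0.0313) and at day 8 (-2.54, adjusted p = 0.0114). Sp4 passed at day 8 against day 0 without day 8 replicate 1 (-1.18, adjusted p = 0.0316) or day 4 replicate 2 (-0.92, adjusted p = 0.0493), with DESeq2 (-0.89, adjusted p = 0.0486) and with total count scaling (adjusted p = 0.0171).

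**Figure D4:**
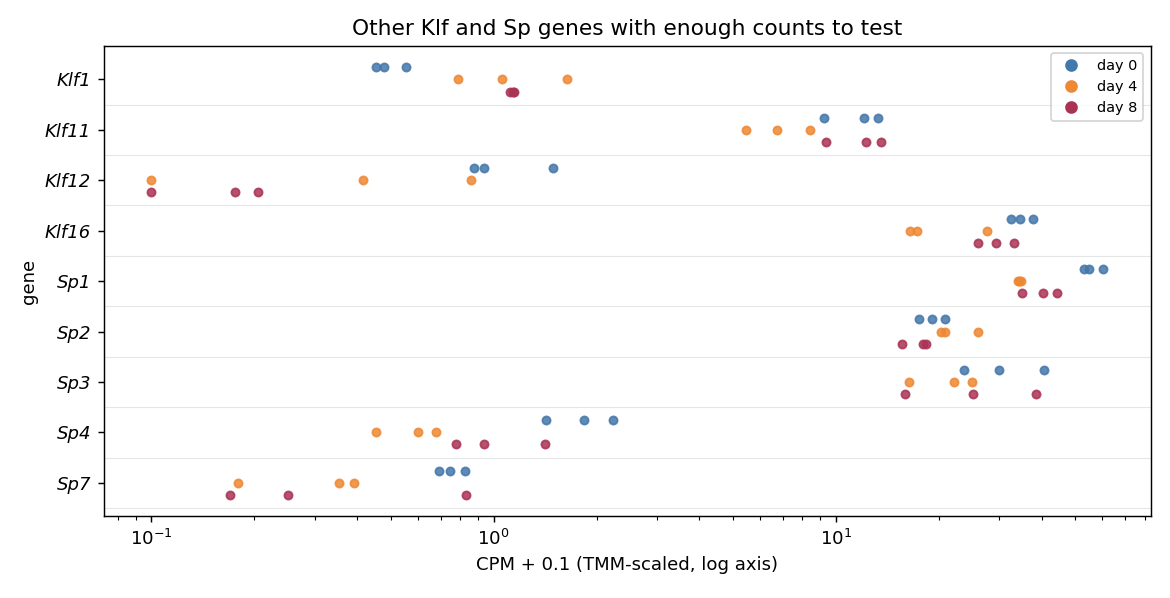
CPM + 0.1, on a log axis, of the 9 tested Klf and Sp genes outside the 10, with 1 point per library coloured by day. Klf11 and Sp4 lie lower at day 4 than at day 0 in every library, and Klf12 and Sp7 lie under 1.5 CPM throughout.

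Corepressors, coactivators and ubiquitin ligases that Krüppel-like factors are known to work with numbered 14, of which 1 rose and 5 fell at day 4 and 3 rose and 7 fell at day 8 against day 0. Of all genes, 28.6% rose and 26% fell at day 4, and 33.5% rose and 29.9% fell at day 8 against day 0. The 5 at day 4 were 2 without day 0 replicate 1 or day 4 replicate 1 and 3 without day 0 replicate 3 or day 4 replicate 3, and the 1 was 0 without day 0 replicate 1 or 3 or day 4 replicate 3 and 2 without day 4 replicate 2 or day 8 replicate 1. Ncor1, a nuclear receptor corepressor, rose from 59.1 ± 5.14 to 106 ± 17.3 CPM at day 8 (LFC 0.85, SE 0.16, adjusted p = 0.00104). Ctbp2, a CtBP corepressor of the kind Klf3 recruits, fell from 34.9 ± 2.54 to 23.1 ± 3.14 CPM at day 4 (LFC -0.59, SE 0.13, adjusted p = 0.00364). Klf3 fell in the same step, and a link between them was not tested. The deacetylase Hdac1 fell from 98.2 ± 8.43 to 54.8 ± 2.37 CPM at day 8 (LFC -0.84, SE 0.15, adjusted p = 0.000768), and so did the acetyltransferase Ep300, from 30.7 ± 1.21 to 15.4 ± 4.34 (LFC -0.997, SE 0.21, adjusted p = 0.00175). Between days 4 and 8, 2 of the 14 fell (1 without day 8 replicate 1 or 2) and 1 rose, beside 10.8% and 11.7% of all genes. The 1, Sin3b, was lost without any 1 of the day 0 libraries, day 4 replicate 3 or day 8 replicate 2 (adjusted p between 0.0646 and 0.131), when low counts were not filtered (adjusted p = 0.0584) and in a fit of days 4 and 8 alone (adjusted p = 0.118). Hdac1 was among those that fell (LFC -0.74, SE 0.15, adjusted p = 0.00858).

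Of 9 adipogenic genes that these factors are known to act with or on, 5 rose and 1 fell at day 4, beside 28.6% and 26% of all genes. At day 8 against day 0, 4 rose and 2 fell, beside 33.5% and 29.9%. The 5 of day 4 were 3 without day 0 replicate 1, and the 1 was 0 without day 0 replicate 1 or day 4 replicate 1 or 3. Slc2a4, the Klf15 target, measured 0.293 ± 0.0323 CPM at day 0, 384 ± 206 at day 4 and 428 ± 95.6 at day 8. It rose by day 4 (LFC 10.33, SE 0.58, adjusted p = 4.18e-07) and did not pass between days 4 and 8 (LFC 0.16, SE 0.36, adjusted p = 0.781), the step in which Klf15 fell. That last difference was -0.28 without day 4 replicate 2, the low library of its day, and -0.04 without day 8 replicate 2, neither past the threshold. Pparg, the master factor of adipogenesis, rose from 14.3 ± 5.23 to 155 ± 40.3 CPM at day 4 (LFC 3.45, SE 0.29, adjusted p = 5.66e-06) and stood at 169.9 ± 6.74 at day 8, while its repressor Klf2 fell. Cebpa, which Klf3 is known to repress, measured 47.3 ± 1.45, 1298 ± 273 and 811 ± 111 CPM and rose by day 4 (LFC 4.78, SE 0.22, adjusted p = 1.2e-07). Gata2, a precursor factor that holds back adipogenesis, fell from 8.31 ± 1.22 to 0.293 ± 0.296 CPM at day 8 (LFC -4.79, SE 0.72, adjusted p = 0.000218). Cebpb, the early factor downstream of Klf4, rose from 51.4 ± 7.48 CPM at day 0 to 123 ± 26.4 at day 8 (LFC 1.26, SE 0.19, adjusted p = 0.000184). Klf4's partner Egr2 measured 10.2 ± 3.91, 15.3 ± 1.38 and 13.3 ± 3.11 CPM and passed in no comparison, except at day 4 without day 0 replicate 2 (0.88, adjusted p = 0.0256). From day 4 to day 8, 1 of the 9 rose and 4 fell, beside 11.7% and 10.8% of all genes. The 1, Cebpb, was not called without any library other than replicate 1 of day 4 or day 8, with DESeq2 size factors (adjusted p = 0.0518) or in a fit of those days alone (adjusted p = 0.0853), and the 4 were 0 to 2 without day 4 replicate 3 or any 1 of the day 8 libraries. The part of the Krüppel-like factors in the values of these 9 genes was not tested.

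Of 11 genes that answer to the hormones of the medium or receive them, 8 rose and 1 fell at day 4, 8 rose and 2 fell at day 8 against day 0, and 1 rose and 6 fell from day 4 to day 8. In the same order, 28.6%, 33.5% and 11.7% of all genes rose and 26%, 29.9% and 10.8% fell. The 1 that fell at day 4, the receptor Thra, was called in neither direction without day 0 replicate 2 or 3 or day 4 replicate 1 or 3, and without day 4 replicate 2 the 1 became 2. Fkbp5, a glucocorticoid-induced chaperone, measured 31.2 ± 4.70 CPM at day 0, 374 ± 12.2 at day 4 and 55.3 ± 18.0 at day 8, with a rise (LFC 3.58, SE 0.23, adjusted p = 8.46e-07) and a fall (LFC -2.76, SE 0.22, adjusted p = 0.000134). Tsc22d3, the glucocorticoid-induced GILZ, measured 49.0 ± 7.09, 278 ± 29.0 and 68.1 ± 14.8 CPM, again with a rise (LFC 2.51, SE 0.19, adjusted p = 2.53e-06) and a fall (LFC -2.03, SE 0.19, adjusted p = 0.000221). Both were highest at day 4, as were Klf13 and Klf15. Others of the list rose at day 4 and did not pass from day 4 to day 8, as Klf9 did. Per1 measured 15.3 ± 2.57, 47.1 ± 6.64 and 43.9 ± 14.7 CPM (adjusted p = 0.773 in that step). Dusp1 measured 23.5 ± 1.52, 43.0 ± 6.60 and 36.5 ± 6.23 CPM (adjusted p = 0.319). Zbtb16, another glucocorticoid-induced gene, had no count at day 0 and then 35.6 ± 2.41 and 14.0 ± 2.70 CPM, and fell from day 4 to day 8 (LFC -1.35, SE 0.18, adjusted p = 0.0022). Hr, a thyroid hormone target, kept rising, from 3.95 ± 1.38 to 22.3 ± 5.33 and 60.2 ± 9.21 CPM (LFC 3.93, SE 0.29, adjusted p = 2.1e-06 at day 8), and the thyroid hormone receptor Thrb rose from 0.958 ± 0.298 to 6.36 ± 1.71 CPM at day 4 (LFC 2.72, SE 0.37, adjusted p = 0.000147). Sgk1, a kinase that glucocorticoids induce, did not pass at day 4 (58.1 ± 7.46 and 57.5 ± 40.0 CPM) and fell to 7.20 ± 0.907 at day 8 (LFC -3.00, SE 0.40, adjusted p = 0.00122 against day 4). Its day 4 libraries measured 31.4, 103.6 and 37.6 CPM, so that replicates 1 and 3 lay below every day 0 library and replicate 2 above. The dexamethasone-containing medium and the day cannot be told apart in this design.

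**Figure D5:**
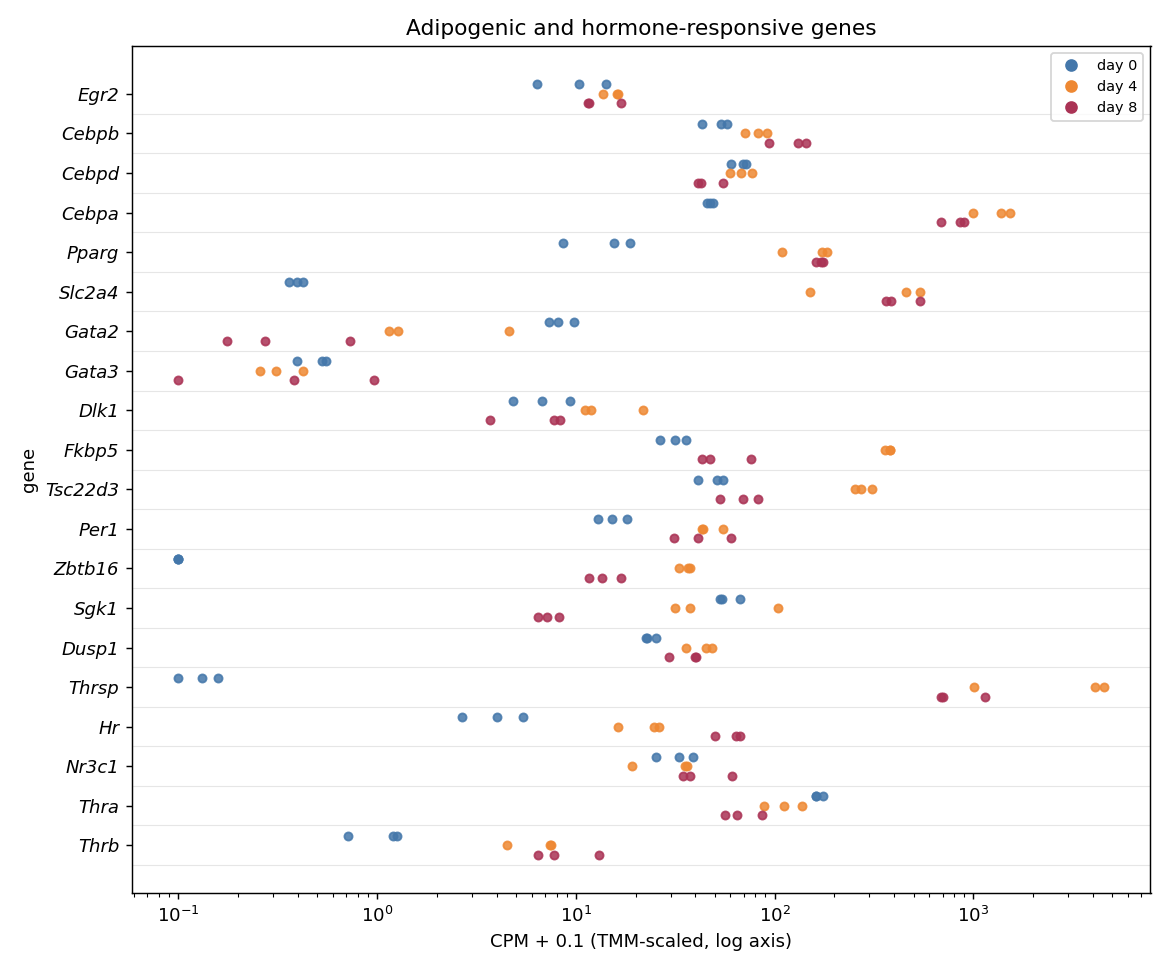
CPM + 0.1, on a log axis, of the 9 adipogenic and 11 hormone-linked genes, with 1 point per library coloured by day. Fkbp5 and Tsc22d3 are highest at day 4 in every library, and Slc2a4, Pparg and Cebpa are higher at days 4 and 8 than at day 0.

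Immediate early genes were read because Klf4, Klf6 and Klf10 are themselves known to respond early to serum and growth factors. Of 7, 2 rose and 4 fell at day 4, beside 28.6% and 26% of all genes. At day 8 against day 0, 2 rose and 2 fell, beside 33.5% and 29.9%. From day 4 to day 8, 4 rose and 0 fell by edgeR, with 0 falling at an unadjusted p under 0.05 and 0 by DESeq2. In that step 11.7% of all genes rose and 10.8% fell by edgeR. Leaving out 1 library took the 2 that rose to 1 at day 4 (day 0 replicate 1 or 3 or day 4 replicate 1) and at day 8 (day 0 replicate 1 or 3 or day 8 replicate 1 or 2). It took the 2 that fell at day 8 to 1 (day 0 replicate 2), and the 4 of the last step to 2 (day 4 replicate 3 or day 8 replicate 1 or 2). Junb measured 50.6 ± 10.3 CPM at day 0, 16.2 ± 2.90 at day 4 and 33.8 ± 2.20 at day 8 and fell at day 4 (LFC -1.64, SE 0.18, adjusted p = 3.46e-05) and rose after it (LFC 1.06, SE 0.18, adjusted p = 0.00341), although its level at day 8 stayed under day 0 (LFC -0.58, SE 0.18, adjusted p = 0.0144, lost without day 0 replicate 2 at an adjusted p of 0.0658). Egr1 measured 65.3 ± 27.8, 22.8 ± 5.34 and 34.0 ± 1.40 CPM and was lower at day 4 (LFC -1.52, SE 0.28, adjusted p = 0.000966) and at day 8 (LFC -0.94, SE 0.27, adjusted p = 0.011), as Klf6 was. Atf3, a stress-induced factor, measured 2.12 ± 1.03, 4.71 ± 1.63 and 39.3 ± 4.94 CPM and was up at day 8 (LFC 4.22, SE 0.35, adjusted p = 4.77e-06). Their part in the values of Klf4, Klf6 and Klf10 was not tested.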

How the data were processed

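RNA of 9 libraries (3 each of days 0, 4 and 8) was measured by stranded, rRNA-depleted total RNA sequencing of a cleared detergent lysate, per the labels' protocols. The authors deposited raw counts per gene, not normalized. HISAT2, featureCounts and build GRCm39 are named in the submitters' processing notes, while versions, strand setting and annotation release are not given in the sources used here. The filterByExpr rule (minimum count 10 and total 15) left 14649 genes, which were fitted in 1 quasi-likelihood model of edgeR 4.0.16 (R 4.3.3) over all 9 libraries with TMM scaling and no covariates. P-values were adjusted by Benjamini-Hochberg over all genes, with a threshold of 0.05. SEs are the absolute log2 fold change over the root of F. The procedure was tested on simulated counts. Lengths are union exon lengths of GENCODE M21, of another build than the counts, used for lengths and overlaps only. Centred log2 CPM used a prior count of 2. Libraries of a day differed by far more than sampling noise (chi-square per degree of freedom 15.5 to 229), so none was counted as a duplicate. Alternatives were DESeq2 1.42.0, total count scaling, DESeq2 size factors, no filter, a replicate block, 2-day fits, leaving out each library and, for family shares, the length of the longest transcript. The members and gene lists were chosen with earlier results of these data known. Text names the 10 members, the up to 4 largest called genes of each list and comparison (lists of 5 or fewer tested genes whole), markers, and 2 nearest genes per member; genes this rule chose that are not reported here are left out. Dlk1 and Egr2 beside Klf6 and Klf4, Cebpb at day 8, Slc2a4 and Zbtb16 from day 4 to day 8 were added to these after their values were seen. So were Tsc22d3 at day 4, Per1, Dusp1 and Sgk1 at day 4.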

Additional observations from a re-analysis of the deposited data

How the results depend on the processing

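Of 450 member values under alternatives, 397 kept direction and side of the threshold, 36 lost the call, 9 gained one and 8 changed sign, each of the 8 in a comparison that had not passed. The members called ran from 6 to 8, 5 to 8 and 4 to 5 over the fits that left out 1 library (day 4 against 0, 8 against 0, 8 against 4; 7, 7 and 6 with all), and were 7, 8 and 6 with DESeq2. Signs changed with total count scaling for Klf10 (-0.13) and Sp2 (-0.0917) at day 4 and Klf15 (-0.0255) and Klf11 (-0.34) at day 8 against day 0. Leaving out 1 library gave ranges across 0 for Klf4 at day 4 (-0.87 to 0.0601), for Klf11 (-0.14 to 0.17) and Sp3 (-0.61 to 0.0208) at day 8 against day 0, and between days 4 and 8 for Klf1 (-0.32 to 0.33), Klf6 (-0.20 to 0.23), Klf9 (-0.38 to 0.0917), Sp3 (-0.0421 to 0.59), Slc2a4 (-0.28 to 0.49) and Sp7 (-0.90 to 1.08). The other Klf and Sp genes called were 5, 3 and 1 in the 3 comparisons, 3 to 6, 3 to 5 and 0 to 1 with 1 library left out, 6 at day 8 against day 0 with total counts, and 0 between days 4 and 8 in an edgeR fit of those days alone (1 at an unadjusted p under 0.05; DESeq2 over all 9 libraries called 1). Partner and linked genes called between days 4 and 8 were 19, with 11 in that fit and 10 to 21 with 1 library left out, and all genes 3285, with 1901 and 1894 to 4185. With total counts 35.3% of calls at day 4 and 37.6% at day 8 against day 0 were higher, against 52.4% and 52.9% with TMM. These causes were not tested. Same-numbered libraries correlated at 0.0662, -0.00881 and 0.0531 (day 4 and 0) and 0.0611, -0.126 and -0.00404 (8 and 4). For days 8 and 0 the values were 0.273, 0.138 and 0.0859, each best with its own number. Numbers may therefore mark pairs between days 0 and 8. No pairing is stated, and the main fit did not use the numbers. A replicate block called 7, 7 and 4 members, without Klf5 and Klf10 between days 4 and 8, and 8070, 9367 and 3105 of all genes, with Klf1 at 0.0020 between days 4 and 8. In that step the block also lost Klf11 (adjusted p = 0.0532) and Cebpb (adjusted p = 0.0635) and gained Klf16 (0.56, adjusted p = 0.0364), and at day 4 it gained Sp3 (-0.56, adjusted p = 0.0149). With the longest transcript in place of joined exons, 12 of 44 family shares moved by 1 SD or more: at day 0 Klf2 (11.4%), Klf3 (15.4%), Klf5 (0.415%), Klf6 (15.7%), Klf7 (1.75%) and Klf10 (4.96%), at day 4 Klf3 (6.77%), Klf5 (0.541%) and Klf7 (0.574%), and at day 8 Klf3 (8.27%), Klf5 (0.347%) and Klf1 (0.876%).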
